A study of Mus musculus with 24 samples.

Results

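The bile acid synthesis and uptake genes described here are 10 mouse genes that were chosen by name: Cyp7a1, Cyp8b1, Cyp27a1, Cyp7b1, Akr1d1, Slc27a5, Baat, Slc10a1, Abcb11 and Nr1h4. They were read out of the 50657 gene symbols counted in each library, and all 10 were among the 13204 genes that passed the low-count filter and were tested. RNA was measured in whole livers of individual wild-type mice (WT) and of mice that lack Egfr, the epidermal growth factor receptor gene, in hepatocytes (KO). Mice at 1, 3 and 12 h had received 500 mg/kg of acetaminophen, a drug that injures the liver in overdose. With 3 mice for each genotype and time there were 8 groups and 24 libraries. Whether the mice taken at 0 h were dosed is not stated, and no untreated mice of the later times are analysed here, so drug, time of day and handling cannot be told apart. No source used here gives the promoter that drove the deletion, the strain or the age of the mice, and cells other than hepatocytes keep Egfr in whole liver.

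Libraries held between 3.54 M and 7.58 M counts on genes, with a median of 5.93 M, of which the bile acid genes held 0.129% to 0.219%. Egfr ran from 203 to 633 CPM (counts scaled to library size with TMM normalization) in WT livers and from 43 to 335 CPM in KO livers. The library labelled KO 1 h replicate 1, at 335 CPM, lay above the lowest WT library of its time at 332 CPM, so its Egfr level goes against its label. Averaged over the 4 times the KO minus WT difference in Egfr was -1.51 (adjusted p = 0.0504 in edgeR). WT 3 h replicates 2 and 3 stood apart on 14 acute phase genes, with summed levels of 11400 to 12000 CPM against 3110 CPM in replicate 1 and at most 3360 CPM in any other library. Changes of the bile acid genes described one by one that rest on these 3 libraries are given with and without them. Hepatocyte markers marked the tissue as labelled: 9 of 10 were in the files and their sum ran from 25600 to 51800 CPM. Summed neutrophil and monocyte markers reached at most 13.3 CPM and lymphocyte markers at most 2.44 CPM.

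Hepatocytes make bile acids from cholesterol by a classic route, which Cyp7a1 opens, and an alternative route, which Cyp27a1 opens in mitochondria. Finished bile acids are joined to taurine, pumped into bile, and taken up again from blood after passing through the gut. The bile acid receptor FXR, encoded by Nr1h4, senses them and switches on the repressor SHP, encoded by Nr0b2, which in turn holds down Cyp7a1.

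RefSeq promoter windows of assembly GRCm38.p6 were available for 6 of the 10 genes, each from 250 bases before to 50 bases after a transcription start. The counts were made on another build, mm39, so these coordinates belong to GRCm38.p6 alone. Windows are shown for Akr1d1 and Nr1h4, which changed in these livers, and for Abcb11 and Cyp8b1, which hold letters searched for regulators also measured. They lie at chr6:37529923-37530222 on the plus strand for Akr1d1, and on the minus strand at chr10:89506609-89506908 for Nr1h4, chr2:69342567-69342866 for Abcb11 and chr9:121916256-121916555 for Cyp8b1. Each is written 5′ to 3′ on the gene's strand, with motif matches in capitals.
Akr1d1: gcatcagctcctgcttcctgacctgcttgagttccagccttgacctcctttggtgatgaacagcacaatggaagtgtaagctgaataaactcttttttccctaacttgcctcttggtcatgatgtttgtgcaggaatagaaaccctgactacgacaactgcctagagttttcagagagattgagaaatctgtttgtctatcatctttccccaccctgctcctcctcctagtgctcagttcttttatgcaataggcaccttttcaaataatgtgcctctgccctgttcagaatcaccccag
Nr1h4: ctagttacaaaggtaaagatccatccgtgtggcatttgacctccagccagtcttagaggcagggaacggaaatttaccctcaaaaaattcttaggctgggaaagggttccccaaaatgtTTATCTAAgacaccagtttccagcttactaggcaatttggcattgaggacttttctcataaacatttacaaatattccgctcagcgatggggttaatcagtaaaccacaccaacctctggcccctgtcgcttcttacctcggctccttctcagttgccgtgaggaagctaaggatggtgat
Abcb11: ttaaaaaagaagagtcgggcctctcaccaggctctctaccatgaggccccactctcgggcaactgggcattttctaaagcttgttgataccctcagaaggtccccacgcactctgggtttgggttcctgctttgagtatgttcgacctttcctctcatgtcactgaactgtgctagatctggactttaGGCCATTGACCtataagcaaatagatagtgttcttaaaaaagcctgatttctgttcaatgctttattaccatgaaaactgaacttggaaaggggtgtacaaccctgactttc
Cyp8b1: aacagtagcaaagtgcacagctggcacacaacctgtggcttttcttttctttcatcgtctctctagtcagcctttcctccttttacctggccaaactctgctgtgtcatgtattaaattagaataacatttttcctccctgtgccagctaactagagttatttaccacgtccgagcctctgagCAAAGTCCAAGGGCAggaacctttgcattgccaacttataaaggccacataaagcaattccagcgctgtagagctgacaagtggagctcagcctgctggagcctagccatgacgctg

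A search on both strands covered the FXR inverted repeat, the LRH-1 site CAAGGNCA, the HNF4A core CAAAGTCCA, the D-box TTANNTAA bound by Nfil3 and its relatives, and the AP-1 site TGANTCA. Abcb11 held the FXR letters as GGCCATTGACC starting at position -62 from the start, in a motif that 0.237% of 32851 RefSeq mouse promoters hold. These FXR letters were widened after the Abcb11 promoter was seen. The match was therefore fixed beforehand, and the share does not show how rare an independent match would be. Cyp8b1 held the HNF4A core at -67 and the LRH-1 letters CAAGGGCA at -60, and these matches share 2 bases. Of all promoters, 0.475% hold the HNF4A core and 6.71% the LRH-1 letters. Nr1h4 held TTATCTAA at -131, a match to the loose D-box form that 6% of promoters hold. With the middle bases left open, this match is not shown to be a D-box. None of these letters was in the windows of Akr1d1, Cyp27a1 or Slc10a1, and the AP-1 letters, held by 7.81% of promoters, were in none of the 6 genes. A match describes the letters and does not show binding.

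Levels are in CPM for each mouse. A change is a log2 fold change, given with a standard error (SE). The SE was derived from edgeR's quasi-likelihood test, as the absolute change divided by the square root of its F-statistic. A gene is said to have risen or fallen where its Benjamini-Hochberg adjusted p over all 13204 genes was under 0.05. Of the 10 genes, 5 passed in at least 1 of 14 contrasts (Cyp7a1, Cyp27a1, Akr1d1, Slc10a1 and Nr1h4) and 5 passed in none. The share of all tested genes that passed in at least 1 contrast is not given here. A single contrast, KO at 12 h against 0 h, already called 28.8% of them. The count of 5 is therefore not read as a result about these genes. The plot of levels by mouse shows every value behind these contrasts.

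**Figure D1:**
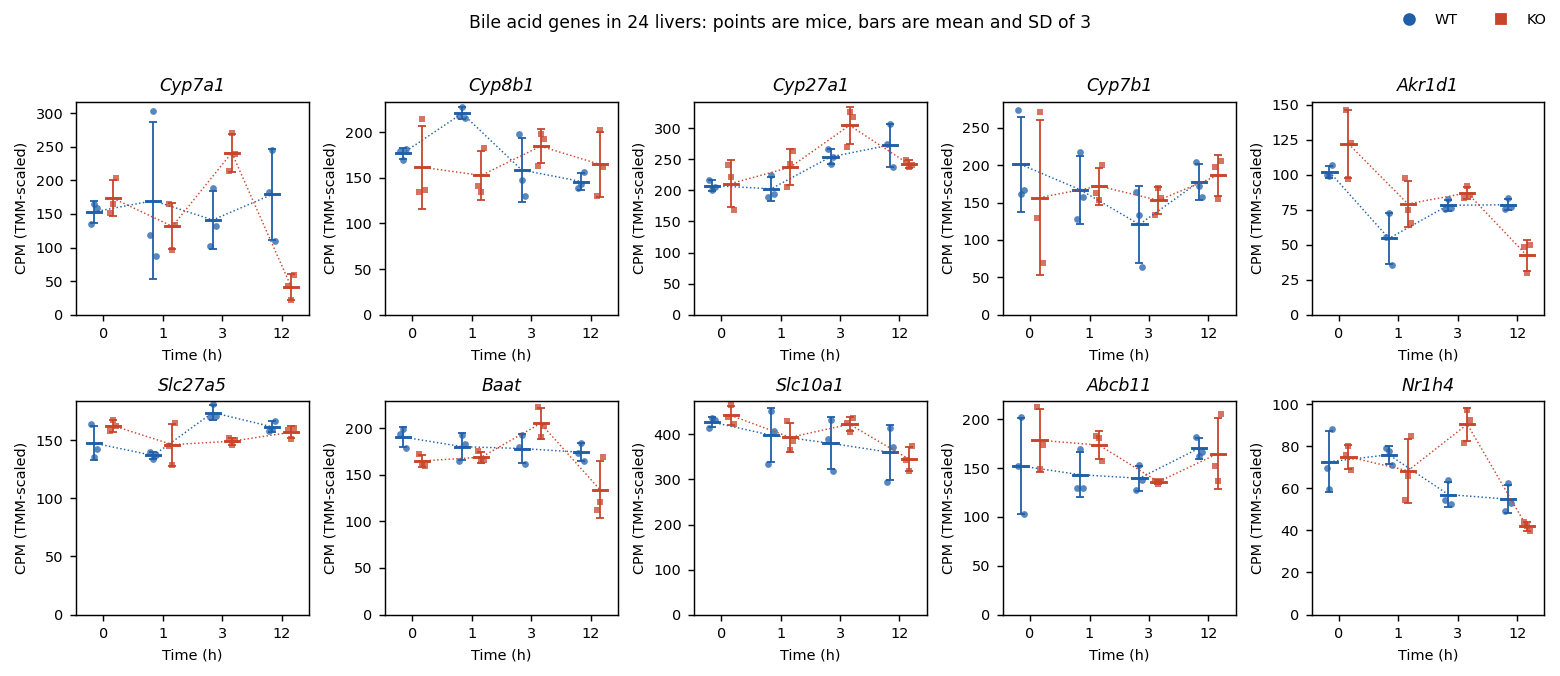
Levels of the 10 bile acid genes in CPM (TMM-scaled, linear axes from 0) against time in h, with each point 1 mouse, WT in blue circles and KO in red squares, and bars for the mean and SD of 3 mice. Cyp7a1 in KO livers at 12 h lay between 21.6 and 59.7 CPM, below every other mouse of the series, and Nr1h4 and Akr1d1 were also at their lowest group mean there.

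The largest change from 0 h among the 10 genes was in Cyp7a1, the rate-limiting enzyme of the classic route, in KO livers at 12 h. Cyp7a1 stood at 152, 165 and 203 CPM in the KO mice at 0 h and at 43.4, 21.6 and 59.7 CPM in those at 12 h. All 3 mice at 12 h lay below all others of either genotype. The mean dropped from 174 ± 26.7 to 41.6 ± 19.1 CPM (SD, n = 3), a log2 fold change of -2.08 (SE 0.452, 95% interval -3.04 to -1.13, adjusted p = 0.00222 in edgeR), which is 4.24-fold lower. The values at 12 h rest on 88 to 171 counts per library. In whole liver, fewer cells of a type and less RNA per cell cannot be told apart from one gene's level. None of 9 tested general hepatocyte markers fell in KO at 12 h and 1 rose (Alb, 0.38, adjusted p = 0.0405). Their sum was 25600 to 33800 CPM at 0 h and 36200 to 38800 CPM at 12 h, all higher. The sum of 10 pericentral hepatocyte markers in KO went the other way, from 3020 to 5680 CPM at 0 h to 1440 to 2450 CPM at 12 h. The part of either list in the Cyp7a1 change was not tested.

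Cyp7a1 did not pass at any time in WT livers, where the spread between mice was wide. WT mice had 135, 165 and 159 CPM at 0 h, against 183, 245 and 109 CPM at 12 h, with a log2 fold change of 0.23 (95% interval -0.65 to 1.11, adjusted p = 0.743). At 1 h a single WT mouse reached 303 CPM, the highest of the series, beside 119 and 87.1 CPM. Without that mouse the WT change at 1 h turned from 0.15 to -0.57. The WT change at 3 h, -0.12 (-0.57, adjusted p = 0.69, without WT 3 h replicates 2 and 3), also turned sign with 1 mouse left out, and so did that at 12 h, so no direction is given for WT at any time.

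Set against each other at 12 h, the genotypes did not overlap: the lowest WT mouse had 109 CPM and the highest KO mouse 59.7 CPM. The KO minus WT difference was -2.13 (SE 0.456, 95% interval -3.09 to -1.16), with an unadjusted p = 0.000248 from edgeR. It did not pass after adjustment over all genes (adjusted p = 0.117) in a contrast where 7 genes, 0.053% of those tested, passed. The difference between the responses from 0 h was -2.31 (SE 0.612, adjusted p = 0.209 in edgeR). DESeq2, run as an alternative, called both, with adjusted p = 0.000122 for the genotype difference and 0.0111 for the difference of responses. At 3 h the order was the other way, with 214, 270 and 239 CPM in KO and 103, 188 and 132 CPM in WT. That difference of 0.78 (95% interval -0.10 to 1.66, adjusted p = 0.556) did not pass, and was 1.25 (adjusted p = 0.926) without WT 3 h replicates 2 and 3.

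Cyp8b1, the sterol hydroxylase that steers the classic route toward cholic acid, passed in no contrast. In WT livers it stood at 179, 170 and 182 CPM at 0 h and at 218, 228 and 216 CPM at 1 h, which do not overlap, with a log2 fold change of 0.32 (95% interval -0.03 to 0.66, adjusted p = 0.304). KO mice had 141, 134 and 183 CPM at 1 h, all below the WT mice of that time. This difference was -0.53 (SE 0.169, 95% interval -0.88 to -0.18, adjusted p = 0.184), and -0.48 without the library labelled KO 1 h replicate 1. At 12 h the KO level of 130, 202 and 162 CPM overlapped that at 0 h, 134, 214 and 137 CPM. The interval of that change, -0.32 to 0.38, lies apart from the one for Cyp7a1 in the same mice, although the difference between the genes was not tested.

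Within a library, the log2 ratio of Cyp8b1 to Cyp7a1 does not depend on scaling or on the lengths of the genes when it is followed across groups. It ran from 1.44 to 3.21 in the KO 12 h mice. In the other 7 groups it ran from -0.77 to 1.31. The KO 12 h mice therefore held the highest values of the series for this ratio, as they did for Cyp7b1 to Cyp7a1, which was 1.78 to 2.82 there and at most 1.02 elsewhere, and for Cyp27a1 to Cyp7a1, 2.00 to 3.43 there and at most 1.37 elsewhere. These ratios share the low Cyp7a1 level and are given as a description.

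Cyp27a1, the mitochondrial enzyme of the alternative route, rose in both contrasts in which it passed. In KO livers it went from 241, 222 and 169 CPM at 0 h to 270, 325 and 318 CPM at 3 h, with no overlap, and rose by 0.53 (SE 0.127, adjusted p = 0.00593 in edgeR). This call was lost without KO 0 h replicate 3, the lowest of its group (0.41, adjusted p = 0.0563). In WT livers it rose by 0.39 (SE 0.128, adjusted p = 0.0228) from 217, 200 and 206 CPM at 0 h to 275, 306 and 237 CPM at 12 h. At 3 h the WT mice, at 266, 242 and 253 CPM, also lay above 0 h, without passing (0.29, adjusted p = 0.135; 0.36 without WT 3 h replicates 2 and 3). KO mice at 12 h had 249, 237 and 240 CPM, 0.20 above 0 h (adjusted p = 0.253). The WT rise at 12 h was lost when any 1 of WT 0 h replicates 2 and 3 or WT 12 h replicates 1 and 2 was left out (adjusted p = 0.0561 to 0.133) and with library size as the only scaling (0.04).

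Cyp7b1, the oxysterol hydroxylase that follows Cyp27a1, was the most uneven gene apart from Cyp7a1, with a within-group SD of 0.49 on the log2 scale (0.53 for Cyp7a1, 0.09 to 0.28 for the other 8). KO mice at 0 h had 130, 271 and 69 CPM. WT mice had 274, 162 and 167 CPM at 0 h, against 164, 134 and 64.1 CPM at 3 h. No contrast had an unadjusted p under 0.05, and the intervals were wide: for KO at 12 h the change was 0.25 with an interval from -0.59 to 1.09.

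Akr1d1 reduces the steroid ring on both routes, and it fell in WT livers at 1 h and in KO livers at 12 h. WT mice had 100, 99.2 and 107 CPM at 0 h, against 55.2, 72.5 and 35.9 CPM at 1 h, without overlap. The fall was 0.90 on the log2 scale, a change of -0.90 (SE 0.197, adjusted p = 0.00506 in edgeR), or 1.87-fold lower. In the same contrast 5 of 10 Kupffer cell markers fell, with sums of 69.7 to 137 CPM at 0 h and 51.2 to 59.6 CPM at 1 h, as did 1 of 8 periportal markers (Hal, -0.92, adjusted p = 0.0064) and 1 of 10 pericentral markers (Cyp2e1, -0.68, 0.0341). Another pericentral marker rose (Tbx3, 1.51, 0.000501), and none of the 9 general hepatocyte markers passed. Their part in the Akr1d1 change was not tested. WT levels at 3 h (75.6, 82.5 and 76.5 CPM) and 12 h (75.9, 83.1 and 76.8 CPM) still lay below all 0 h mice, with changes of -0.39 and -0.38 that did not pass (adjusted p = 0.208 and 0.174). Without WT 3 h replicates 2 and 3 the 3 h change was -0.44 (adjusted p = 0.49). In KO livers the level went from 146, 97.3 and 123 CPM at 0 h to 97.7, 74.6 and 65.3 CPM at 1 h, a change of -0.63 (adjusted p = 0.0502). Without the library labelled KO 1 h replicate 1 it was -0.79 (adjusted p = 0.0199).

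At 12 h Akr1d1 in KO mice was at 48.1, 29.7 and 49.6 CPM, below all 9 KO mice of the earlier times and all 3 WT mice of that time. It fell by 1.53 from 0 h (SE 0.208, 95% interval -1.97 to -1.10, adjusted p = 6.9e-06 in edgeR), or 2.9-fold. The KO minus WT difference at 12 h was -0.90 (SE 0.213, 95% interval -1.34 to -0.46, unadjusted p = 0.000339 in edgeR, adjusted p = 0.129). The difference between the responses was -1.15 (SE 0.287, adjusted p = 0.148). DESeq2 called the genotype difference (adjusted p = 0.0133) and the difference of responses (0.0283). Leaving out any single library ended neither the WT fall at 1 h nor the KO fall at 12 h.

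Slc27a5, which activates bile acids with coenzyme A, and Baat, which then joins them to taurine, passed in no contrast. Slc27a5 was the steadiest of the genes in TMM-scaled levels, between 129 and 181 CPM in all 24 mice. Its 12 h changes were 0.13 in WT (95% interval -0.08 to 0.34) and -0.05 in KO (-0.26 to 0.16). With library size as the only scaling they were -0.23 in WT (adjusted p = 0.0984 in edgeR) and -0.31 in KO, which passed (0.0244). Baat in KO mice stood at 172, 163 and 160 CPM at 0 h, then at 223, 191 and 202 CPM (3 h) and finally at 112, 121 and 169 CPM (12 h). The 3 h mice lay above all 0 h mice, and 2 of the 3 mice at 12 h lay below them. The changes were 0.32 at 3 h (adjusted p = 0.0961) and -0.30 at 12 h (SE 0.123, adjusted p = 0.0671). Without KO 12 h replicate 3, which had the smallest library of the series, the 12 h change was -0.50 and passed (adjusted p = 0.00251), as did the KO minus WT difference at 12 h (-0.58, adjusted p = 0.0287, against -0.38 and 0.262 with it).

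Slc10a1, the carrier NTCP that brings bile acids back from blood into hepatocytes, fell slightly in KO livers at 12 h. KO mice had 439, 465 and 423 CPM at 0 h, against 343, 319 and 374 CPM at 12 h, without overlap, a change of -0.36 (SE 0.132, adjusted p = 0.0396 in edgeR) or 1.28-fold lower. The call was lost without any 1 of 5 of the 6 libraries (adjusted p = 0.0585 to 0.15), all but KO 12 h replicate 3. WT mice went from 414, 437 and 432 to 294, 414 and 373 CPM, a change of -0.25 (adjusted p = 0.175). The genotypes at 12 h overlapped, and their difference was -0.06 (95% interval -0.33 to 0.21).

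Abcb11, the export pump BSEP and a target of FXR whose promoter window is printed above, passed in no contrast. KO mice had 213, 149 and 174 CPM at 0 h, then 137, 134 and 137 CPM (3 h) and finally 152, 137 and 206 CPM (12 h). The 3 h mice lay below all 0 h mice, with a change of -0.39 (95% interval -0.76 to -0.03, adjusted p = 0.182). WT mice ran from 103 to 202 CPM at 0 h and from 162 to 182 CPM at 12 h. The 12 h change was 0.16 in WT (95% interval -0.21 to 0.53) and -0.12 in KO (-0.48 to 0.25).

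Nr1h4, which encodes FXR, fell at 12 h in both genotypes and was the only bile acid gene whose genotype difference passed. KO mice had 76, 80.1 and 68.9 CPM at 0 h, against 44, 42.3 and 39.5 CPM at 12 h, the 3 lowest values of the series. The change was -0.84 (SE 0.147, 95% interval -1.14 to -0.54, adjusted p = 5.28e-05 in edgeR), 1.79-fold lower, and no single library ended the call. WT mice had 69.9, 59.9 and 88.3 CPM at 0 h, against 49.3, 62.5 and 52.9 CPM at 12 h, which overlap. Their change of -0.41 (SE 0.144, adjusted p = 0.0348) was lost in 4 of 6 leave-outs, without WT 0 h replicates 1 or 3 or WT 12 h replicates 1 or 3 (adjusted p = 0.0557 to 0.238), and with DESeq2 (0.059). The genotypes did not overlap at 12 h, with a difference of -0.39 (adjusted p = 0.343) that did not pass.

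At 3 h Nr1h4 was higher in KO mice, at 81.8, 97.2 and 92.6 CPM, than in WT mice, at 54.5, 64 and 52.7 CPM. The difference was 0.67 (SE 0.14, 95% interval 0.38 to 0.95, adjusted p = 0.0145 in edgeR), or 1.59-fold. KO mice lay 0.27 above their 0 h level (adjusted p = 0.239) and WT mice 0.36 below theirs (-0.36, adjusted p = 0.0867; -0.42, adjusted p = 0.241, without WT 3 h replicates 2 and 3), and the difference of the responses, 0.63, had an adjusted p of 0.23. The genotype difference stayed at 0.74 without WT 3 h replicates 2 and 3 but no longer passed (adjusted p = 0.221), with the lone WT mouse assumed to vary as the other groups do. It also no longer passed without KO 3 h replicate 2 (adjusted p = 0.0894), KO 3 h replicate 3 (0.0978) or WT 3 h replicate 3 (0.13). In WT 3 h, summed red blood cell markers ran from 80.1 to 331 CPM, against 42.2 to 59.3 CPM in KO 3 h, and 3 of 5 were lower in KO by the test. Acute phase genes ran from 3110 to 12000 CPM against 2590 to 2950 CPM. The general hepatocyte sum was 38700 to 51800 CPM in WT and 32700 to 33700 CPM in KO, with 2 of 9 markers lower in KO (Ahsg, -0.62, adjusted p = 0.0337, and Fgb, -1.44, 0.0236). The cholangiocyte sum was 105 to 169 against 42.3 to 55.5 CPM, with 1 of 3 tested markers lower in KO (Slc10a2, -1.88, 0.0273). Sox9 (-0.28) and Spp1 (-0.33) did not pass. The Kupffer cell sum was 66.8 to 156 CPM in WT and 51.3 to 67.6 CPM in KO, which overlap. All 10 Kupffer cell markers lay lower in KO, from -0.42 (Adgre1) to -1.85 (Folr2), and 1 passed (C1qb, -1.25, 0.041). The part of these markers in the Nr1h4 difference was not tested.

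**Figure D2:**
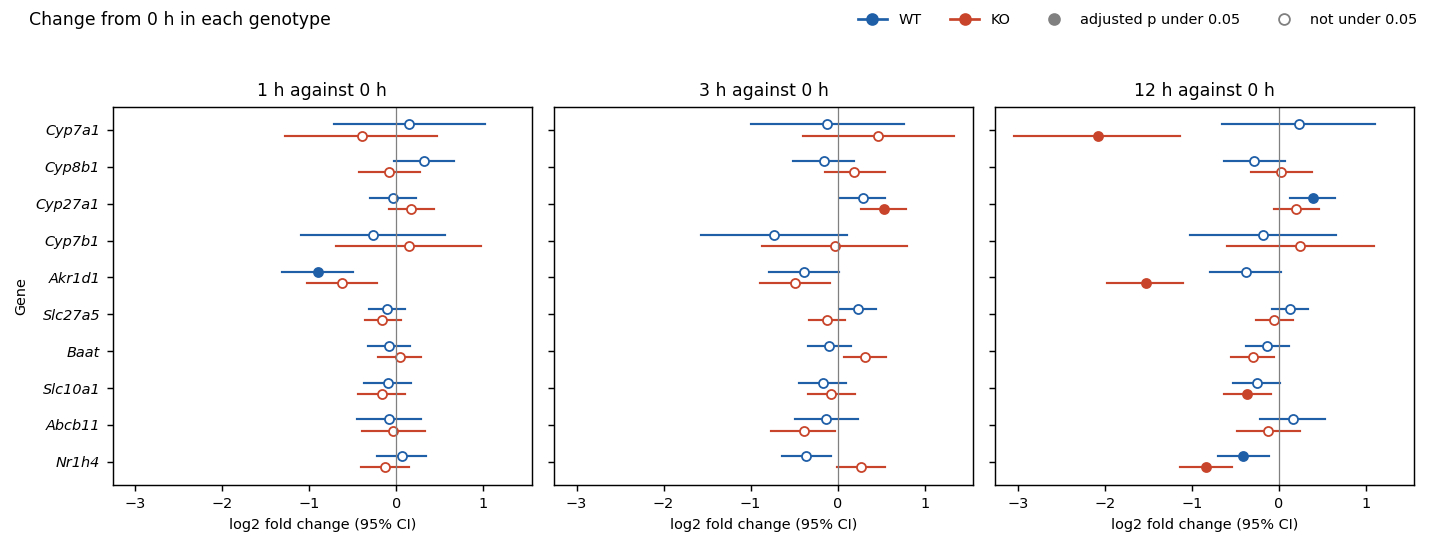
Log2 fold change from 0 h (x axis, with 95% interval as bars) of each bile acid gene at 1, 3 and 12 h, in WT (blue) and KO (red), with filled points for adjusted p under 0.05. At 12 h the KO points of Cyp7a1 (-2.08), Akr1d1 (-1.53), Nr1h4 (-0.84) and Slc10a1 (-0.36) are filled and lie below 0, and in WT those of Nr1h4 (-0.41) and Cyp27a1 (0.39) are filled.

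Counted over the 10 genes, 1 fell and none rose in WT at 1 h, where 8.09% of all tested genes passed, 4.09% higher and 4% lower. In WT at 3 h none passed (14.1% of all genes), although 3 had an unadjusted p under 0.05 in edgeR and DESeq2 called 1. In WT at 12 h 1 rose and 1 fell (25.6% of all genes passed, 13.4% higher and 12.2% lower). In KO none passed at 1 h (7.58% of all genes; 1 at an unadjusted p under 0.05, none with DESeq2), 1 rose at 3 h (9.95% of all genes passed, 5.11% higher and 4.84% lower), and 4 fell at 12 h (28.8% passed, 15.1% higher and 13.7% lower). The median change of the 10 genes in KO at 12 h was -0.21, beside a median of all tested genes at 0 to within 0.01. The 4 in 10 that fell stand beside 13.7% of all genes, and no test was made of the list. The counts at an unadjusted p or with DESeq2 have no share of all genes beside them.

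The ranges of the mice did not overlap between 0 h and a later time for 2, 3 and 4 of the 10 genes in WT at 1, 3 and 12 h, beside 24.7%, 28.6% and 39.9% of all tested genes. In KO they did not overlap for 0, 7 and 4 of the 10 at 1, 3 and 12 h, beside 26%, 30.8% and 41.1% of all genes. Between genotypes they did not overlap for 1, 1, 5 and 3 of the 10 at 0, 1, 3 and 12 h, beside 14.4%, 14.9%, 15.5% and 14.5% of all genes. The 12 h counts of both genotypes lie near the share of all genes. No count is given without WT 3 h replicates 2 and 3, which leaves 1 WT mouse at 3 h. Ordered by group mean, Cyp7a1 had KO 12 h lowest, apart from its neighbour KO 1 h, and the ranges of each of the other 6 neighbouring pairs overlapped. For Nr1h4 the lowest group, KO 12 h, and the highest, KO 3 h, stood apart from their neighbours WT 12 h and WT 1 h, and the 5 pairs between overlapped. For Akr1d1 the gaps lay between WT 1 h and WT 3 h and between KO 3 h and WT 0 h.

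**Figure D3:**
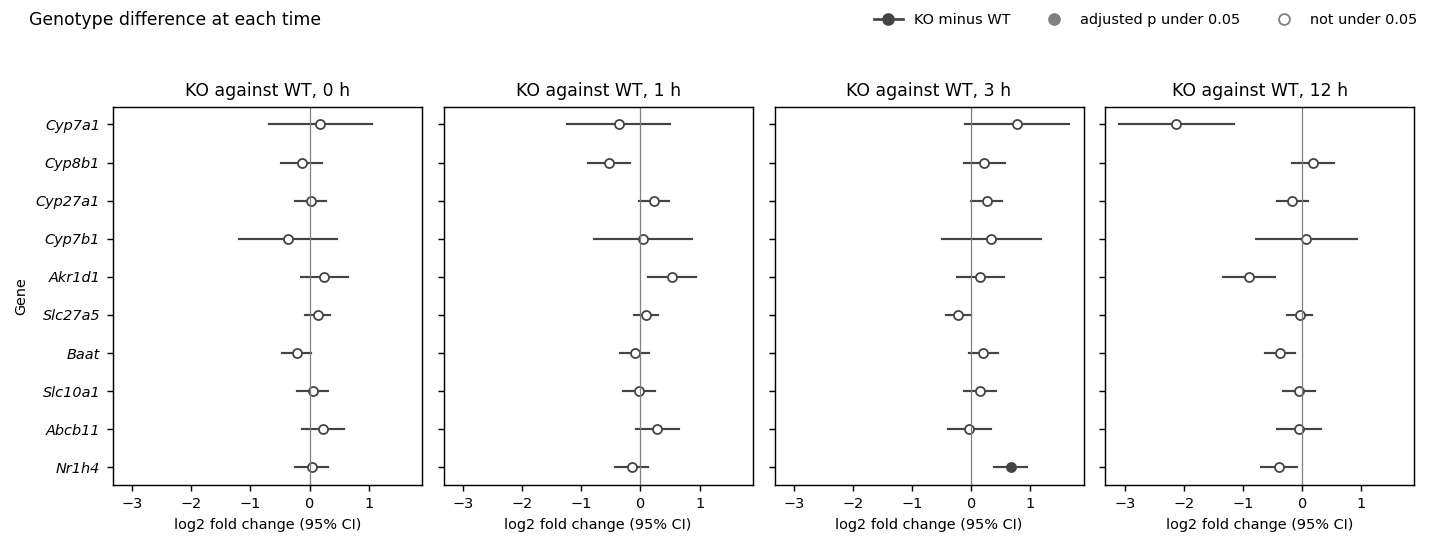
KO minus WT difference in log2 units (x axis, with 95% interval as bars) for each bile acid gene at 0, 1, 3 and 12 h, with filled points for adjusted p under 0.05. Nr1h4 at 3 h (0.67) is the only filled point, while Cyp7a1 (-2.13) and Akr1d1 (-0.90) at 12 h have intervals that leave out 0 but are open points.

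Between the genotypes, none of the 10 genes passed at 0 h, where 0.0151% of all genes did, and none had an unadjusted p under 0.05 or was called by DESeq2. The 0 h differences ran from -0.36 (Cyp7b1) to 0.25 (Akr1d1), and the interval of Nr1h4 was -0.24 to 0.32. Baat alone did not overlap there, at 160 to 172 CPM in KO and 179 to 199 CPM in WT (-0.21, adjusted p = 0.675). At 1 h none passed (0.492% of all genes), with 2 at an unadjusted p under 0.05, Cyp8b1 and Akr1d1 (0.53, adjusted p = 0.316; 0.36, adjusted p = 0.598, without the library labelled KO 1 h replicate 1), and none with DESeq2. At 3 h 1 passed, higher in KO (0.977% of all genes passed, 0.326% higher and 0.651% lower), and at 12 h none did, with 4 at an unadjusted p under 0.05 (Cyp7a1, Akr1d1, Baat and Nr1h4, all lower in KO) and 2 called by DESeq2. Averaged over the 4 times none of the 10 passed and no gene of the series did (0%), nor had any of the 10 an unadjusted p under 0.05. For the differences of response at 1, 3 and 12 h, 0.454%, 0.151% and 0.0227% of all genes passed and none of the 10, with 0, 3 and 3 of them at an unadjusted p under 0.05 in edgeR and 0, 0 and 2 called by DESeq2. The shares of all genes given here are for the adjusted p in edgeR. No share stands beside the counts at an unadjusted p or with DESeq2, so those counts are not read as results about the 10 genes.

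Other liver markers moved at 12 h beside these genes. Of 10 pericentral hepatocyte markers, 6 fell in WT and 6 in KO, and their sum ran from 4190 to 5280 CPM in WT and 3020 to 5680 CPM in KO at 0 h, and from 2250 to 2410 CPM and 1440 to 2450 CPM at 12 h. The sum of 8 periportal markers at 12 h was 3060 to 3270 CPM in WT and 2520 to 2980 CPM in KO, and that of the hepatocyte markers 39400 to 43800 and 36200 to 38800 CPM, so that both sums were lower in KO mice without overlap. No single marker of these lists passed between genotypes at 12 h (lowest adjusted p = 0.366 in edgeR, Sds), and Cdh1 (0.18) and Hsd17b13 (0.12) lay higher in KO. From 0 h to 12 h the periportal markers Hal and Pck1 fell and Hsd17b13 rose in both genotypes. Cyp2f2 rose in WT alone and Cdh1 in KO alone. The cholangiocyte sum ran from 34 to 59.3 CPM in both genotypes at 0 h and from 57.7 to 265 CPM at 12 h, with Tff2 at 0 in every KO 12 h library and Krt7 in every WT 12 h library. Of its 9 markers 3 were tested, and Sox9 alone rose (3.78 in WT, adjusted p = 3.6e-06, and 2.53 in KO, 0.000201). The stellate cell sum in WT was 226 to 256 CPM at 0 h and 271 to 341 CPM at 12 h, with 3 of 9 markers higher and 1 lower. In KO it was 195 to 251 and 248 to 304 CPM, which overlap, with 1 higher and 1 lower. The endothelial sum in KO was 332 to 354 and 362 to 452 CPM, without overlap, with 2 of 9 markers higher. In WT it was 297 to 357 and 330 to 383 CPM, with 1 higher. Of 10 Kupffer cell markers 1 fell in WT and 2 rose in KO. Their part in the changes of Cyp7a1, Akr1d1, Slc10a1 and Nr1h4 was not tested. TMM scaling sets the middle of all genes to 0 at 12 h: with library size alone that middle lay at -0.367 in WT and -0.259 in KO, and the bile acid genes that passed became 5 lower in WT and 7 lower in KO. In WT these were Cyp8b1, Akr1d1, Baat, Slc10a1 and Nr1h4. In KO they were Cyp7a1, Akr1d1, Slc27a5, Baat, Slc10a1, Abcb11 and Nr1h4. The changes at 12 h are therefore relative to the middle of all genes.

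Nr0b2, which encodes the repressor SHP that FXR induces, was low throughout, at 2 to 48 counts per library. It fell in WT at 1 h (-1.61, adjusted p = 0.00832 in edgeR), 3 h (-1.87, 0.00217) and 12 h (-2.05, 0.00226), and in KO at 3 h (-1.78, 0.00374) and 12 h (-1.71, 0.00486). WT mice went from 4.9, 5.89 and 3.73 CPM at 0 h to 2.21, 0.834 and 0.519 CPM at 12 h, and KO mice from 7.6, 4.18 and 3.85 to 1.76, 0.737 and 2.44 CPM. Nr0b2 fell at 12 h in KO livers, in which Cyp7a1 fell, and in WT livers, in which Cyp7a1 did not pass. The Nr0b2 levels at 12 h rest on 2 to 7 counts per library. Any part of SHP in the Cyp7a1 change was not tested. In Nr0b2 the genotypes were 0.45 apart at 12 h (adjusted p = 0.872 in edgeR). Leaving out WT 1 h replicate 3 (adjusted p = 0.0571), WT 3 h replicates 2 and 3 together (0.0821), KO 3 h replicate 3 (0.0543) or KO 12 h replicate 2 (0.0581) ended the call of that group.

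Among 22 tested regulators of bile acid genes, 4 rose and 9 fell in WT at 12 h and 4 rose and 12 fell in KO, beside 13.4% and 12.2% of all tested genes higher and lower in WT and 15.1% and 13.7% in KO. Nr5a2, which encodes LRH-1, an activator of Cyp7a1 and Cyp8b1, went from 42.8, 41.8 and 37.2 to 19.6, 19.2 and 20 CPM in WT (-1.05, adjusted p = 1.84e-07) and from 51, 47.9 and 42.1 to 19.6, 23.6 and 17.5 CPM in KO (-1.20, adjusted p = 1.16e-08). Nfil3, which encodes a repressor, rose by 2.82 in WT (adjusted p = 1.08e-11 in edgeR) and 2.31 in KO (7.27e-10). Zfp36l1, a protein that speeds mRNA decay, rose by 1.35 and 0.79 (adjusted p = 2.09e-08 and 9.78e-05), Cebpb by 1.09 and 1.29 (1.55e-05 and 1.29e-06), and the fatty acid regulator Ppara fell by 1.42 and 1.47 (1.72e-07 and 1.07e-07). Prox1, a co-repressor of Cyp7a1, was the only regulator whose genotype difference passed: at 3 h it stood at 146, 152 and 139 CPM in KO and 96.2, 97.9 and 88.3 CPM in WT (0.63, adjusted p = 0.0165). That call was lost in 5 of 6 leave-outs, all but WT 3 h replicate 1 (adjusted p = 0.056 to 0.13), and without WT 3 h replicates 2 and 3 together (0.61, 0.418).

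Of 12 other tested synthesis enzymes, 4 fell and 1 rose in KO at 12 h, beside 13.7% of all tested genes lower and 15.1% higher. In WT 2 fell and 2 rose, beside 12.2% lower and 13.4% higher. No test was made of this list. The aldo-keto reductase Akr1c6, a relative of Akr1d1, went from 172, 148 and 87.3 to 25.2, 12.8 and 27.2 CPM in KO (-2.67, SE 0.497, adjusted p = 0.000658). Its relative Akr1c14 fell by 1.62 in KO (adjusted p = 0.000142) and 0.86 in WT (0.0168). Near-identical copies of these reductases could share reads. Hsd3b7, which acts after Cyp7a1, fell in KO from 85.8, 78.5 and 75.9 to 52.2, 53.1 and 56.6 CPM (-0.57, adjusted p = 0.000435), and Amacr fell there by 0.44 (0.00303). Cyp2c70, which makes muricholic acids in mice, rose instead, by 1.87 in WT at 3 h (adjusted p = 0.00258). WT 3 h replicates 2 and 3 had 134 and 105 CPM against 57.3 CPM in replicate 1, and the change was 1.09 with that mouse alone. At 12 h it stood at 72.8, 75 and 53.4 CPM in WT, above 37.8, 19.3 and 22.7 CPM at 0 h. KO mice had 46, 42 and 63.9 CPM at 12 h, above 23.3, 30.7 and 11.3 CPM at 0 h.

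Among 12 other tested transporters, 6 fell in WT and 5 in KO at 12 h and none rose, beside 12.2% and 13.7% of all genes that fell. Slco1b2, a carrier that takes up bile acids beside Slc10a1, fell by 1.00 in WT (adjusted p = 0.0027) and by 1.31 in KO (0.00022). Abcg5 and Abcg8 form the pump that exports cholesterol into bile, and they fell in WT at 1 h by 1.38 and 1.23 (adjusted p = 4.09e-06 and 3.55e-07). WT mice at 1 h had 16.1, 15 and 16 CPM of Abcg5, all below the KO mice at 41.1, 30 and 25.5 CPM, and the difference of 1.03 passed (adjusted p = 0.00229). For Abcg8 it was 0.84 (adjusted p = 0.00148). Without the library labelled KO 1 h replicate 1 they were 0.82 (0.0144) and 0.77 (0.00613).

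Of 13 tested genes of cholesterol supply, 3 rose and 1 fell in WT at 12 h, beside 13.4% of all tested genes higher and 12.2% lower. In KO 2 rose and 3 fell, beside 15.1% higher and 13.7% lower. No test was made of this list either. Insig2, which holds back cholesterol synthesis, rose in both genotypes, by 1.46 in WT at 1 h and 1.43 in KO at 3 h (adjusted p = 3.2e-05 and 3.65e-05) and by 1.08 in KO at 12 h (0.000218).

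**Figure D4:**
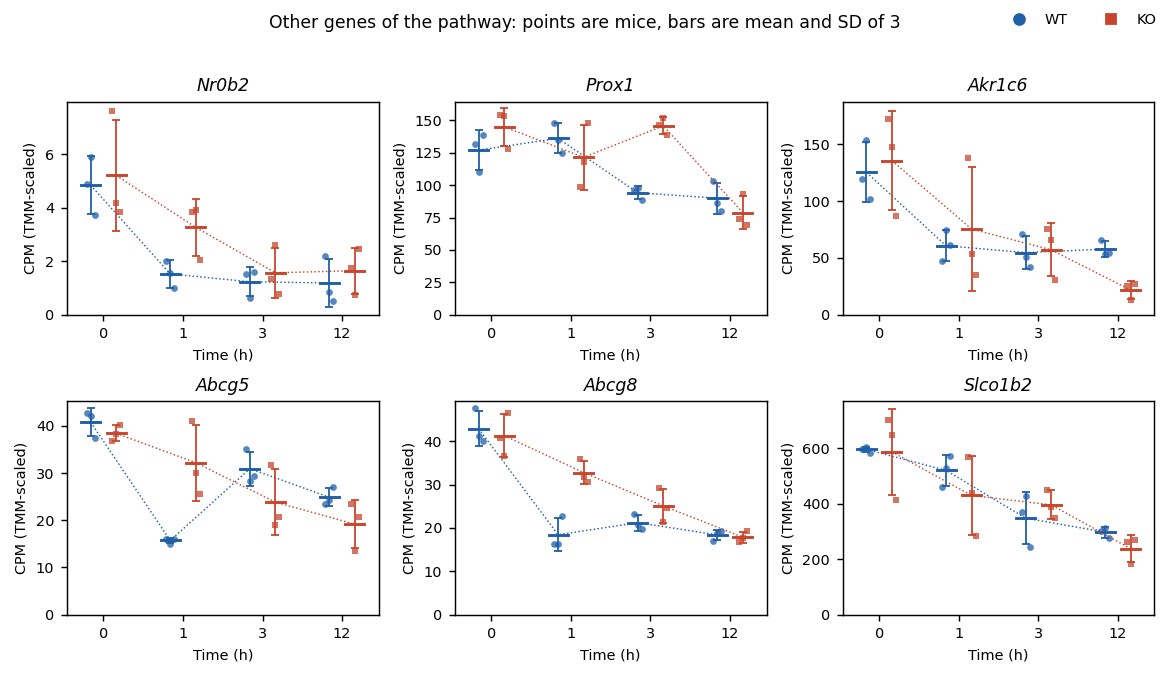
Levels in CPM (TMM-scaled, linear axes from 0) against time in h for Nr0b2, Prox1, Akr1c6, Abcg5, Abcg8 and Slco1b2, with each point 1 mouse, WT in blue circles and KO in red squares, and bars for the mean and SD of 3 mice. Abcg5 and Abcg8 at 1 h are lower in all 3 WT mice than in all 3 KO mice, and Prox1 at 3 h is higher in all 3 KO mice.

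The genes whose levels ran most like the bile acid genes over the 24 libraries were searched among 7402 genes with a mean of at least 5 CPM. Nr1h4 ran most like Prox1 (Pearson r 0.90, Spearman rho 0.88; r 0.90 without the 2 libraries farthest from the median of Nr1h4, and 0.62 within groups), then Shld2 and Plpp3. Akr1d1 ran most like Gsta3 (r 0.87, rho 0.81; 0.80 without 2 libraries, 0.58 within groups), then Sqor and Afmid. Cyp7a1 ran most like its fellow bile acid gene Baat (r 0.78, rho 0.57), then Sh3bp5 and Ppp2r5e, but r with Baat was 0.48 without KO 12 h replicates 1 and 2 and rests on them. Cyp7b1 ran most like Mup12, Mup16 and Mup15 (r 0.83 for each), near-identical genes of the major urinary protein family whose reads may be split between copies. Without WT 3 h replicate 3 and KO 0 h replicate 3 those values were 0.45 to 0.49. The 24 points share 8 groups, library depth and scaling, and these values are descriptions without a p.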

How the data were processed

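RNA of 24 mouse livers was sequenced on an AVITI instrument, and the molecule is polyA RNA, per the labels. The deposited files hold unnormalized gene counts from STAR with mm39, per the submitters' processing notes; no source used here gives the version or annotation. Of the 3 count columns, the unstranded one was used; 98.6% to 99.8% of the strand-assigned counts of each bile acid gene lay on its own strand. The 4 lines that name no gene stayed out of library sizes: unmapped reads made up 19.2% to 23.7%, reads at several places 7.23% to 8.7%, reads outside genes 21.2% to 22.7% and ambiguous reads 26.3% to 30.8%, which left 17.6% to 22.5% on genes. Mitochondrial ribosomal RNA (mt-Rnr1) alone took 21.4% to 33.2% of gene counts. Replicates differed by 2.18 to 19.7 times counting variance, so all 24 were kept as separate samples.

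Counts were fitted in R 4.3.3 with edgeR 4.0.16: filterByExpr on the 8 groups, TMM, robust quasi-likelihood, 1 mean per group, two-sided F-tests and Benjamini-Hochberg adjustment over 13204 genes at 0.05. Intervals are 95%, from the derived SE and a t quantile, and CPM uses TMM-scaled library sizes. Each mouse gave 1 time point, and all changes from 0 h within a genotype rest on the same 3 mice at 0 h. The fit was tested on simulated data. Alternatives were DESeq2 1.42.0, scaling by RLE or by library size alone, no low-count filter or 1 CPM reached in 3 libraries, gene-strand counts, a block for replicate number, fits of just the groups compared, ribosomal RNA left out, WT 3 h replicates 2 and 3 left out, and each library left out in turn. Correlations used log2 CPM with a prior count of 2.

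The genes, lists and tests were chosen with earlier results of these data known. Text names all 10 genes, Nr0b2, and from each pathway list called genes among the 4 with the smallest p in a contrast, some of which are left out for length. The FXR motif letters were widened by 1 base after the Abcb11 promoter was seen.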

Additional observations from a re-analysis of the deposited data

Results flagged for a closer look

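The response of Abcg5 at 1 h differed between the genotypes in edgeR's test of the difference of responses, by 1.11 on the log2 scale (SE 0.242, adjusted p = 0.0318): it fell by 1.38 in WT and the KO change was -0.27 (adjusted p = 0.389). That of Abcg8 differed by 0.89 (SE 0.191, adjusted p = 0.0229), with a fall of 1.23 in WT and a KO change of -0.34 (adjusted p = 0.116). Without the library labelled KO 1 h replicate 1 the values were 0.91 (adjusted p = 0.0592) for Abcg5 and 0.83 (0.0427) for Abcg8. The Abcg5 call was lost in 11 of 12 leave-outs (values of 0.91 to 1.17 in those) and that of Abcg8 in 6 of 12 (0.80 to 0.92). No bile acid gene of the 10 was picked out by the test of the difference of responses.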

How the results depend on the processing

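The falls of Cyp7a1, Akr1d1 and Nr1h4 in KO at 12 h and of Akr1d1 in WT at 1 h passed under every alternative run. Counts of bile acid genes that passed, given above as 1, 0 and 2 in WT and 0, 1 and 4 in KO at 1, 3 and 12 h, moved by over 1.5 times as follows. Library size alone gave 1 in WT at 3 h, 5 in WT at 12 h, 1 in KO at 1 h and 7 in KO at 12 h. With it, all-gene calls went from 961 higher and 904 lower to 689 and 1191 in WT at 3 h, from 1772 and 1609 to 939 and 4385 in WT at 12 h, and from 1989 and 1813 to 1265 and 3536 in KO at 12 h. No low-count filter gave 1 in KO at 1 h, 3 in KO at 3 h, 2 between genotypes at 1 h, 1 at 12 h and 1 for the difference of responses at 12 h. DESeq2 gave 1 in WT at 3 h, 1 in WT at 12 h, 2 in KO at 3 h, 2 between genotypes at 12 h and 2 for the difference of responses at 12 h. Only the groups compared gave 5 in KO at 3 h and 1 between genotypes at 12 h, gene-strand counts 1 in WT at 12 h, and leaving out WT 3 h replicates 2 and 3 gave 0 between genotypes at 3 h. For KO at 3 h no count over all genes is given under these alternatives, and the 5 genes are not named. Counts with no all-gene count under the same setting are not read as results about the bile acid genes. The cause of these moves was not tested.

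Leaving out each library in turn gave 0 to 1 calls in WT at 3 h and at 12 h. The range was also 0 to 1 in KO at 1 h and at 3 h, and 3 to 5 in KO at 12 h. Between genotypes it was 0 to 1 at 3 h and at 12 h. No all-gene count is given for these fits, so their calls are not read as results about the bile acid genes. The Cyp7a1 change, which passed in none of these contrasts, turned sign in WT at 12 h with library size alone (-0.12). Over the leave-outs it ran from -0.07 to 0.48 in WT at 12 h (lowest when WT 12 h replicate 2 was dropped), from -0.39 to 0.06 in WT at 3 h (highest when WT 3 h replicate 1 was dropped), and, with its turn of sign always on dropping WT 1 h replicate 2, from -0.57 to 0.48 in WT at 1 h, from -0.69 to 0.35 between genotypes at 1 h and from -0.87 to 0.16 for the difference of responses at 1 h. With the replicate number as a block, 4 bile acid genes passed in KO at 12 h and no count of bile acid genes changed in any contrast. Deviations of same-numbered libraries from their group means had a median correlation of 0.02 at most (pair values -0.17 to 0.18). That of differently numbered libraries was -0.01 (-0.21 to 0.18). Of 24 libraries, 11 correlated best with one of their own number. With means of 3 mice these values do not show that the numbers pair mice or mark a batch, and they cannot exclude it.

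Counts over all genes moved by over 1.5 times as follows. WT at 3 h had 1865, against 1198 with only its groups fitted and 1027 without WT 3 h replicates 2 and 3. WT at 12 h had 3381, against 5324 with library size alone. Between genotypes the counts were 2, 65, 129 and 7 at 0, 1, 3 and 12 h. Without a low-count filter they were 95, 230, 254 and 78, and with only the groups compared 13, 39, 44 and 24. DESeq2 gave 31, 103 and 36 at 0, 1 and 12 h, gene-strand counts 1 and 2 at 0 and 12 h, the block 9 at 0 h, and leaving out WT 3 h replicates 2 and 3 gave 17, 28 and 13 at 0, 3 and 12 h. Averaged over the times the count was 0, against 31 without a filter and 1 with DESeq2, gene-strand counts, RLE or no ribosomal RNA. Differences of response numbered 60, 20 and 3 at 1, 3 and 12 h, against 119, 92 and 40 with DESeq2 and 217, 159 and 79 without a filter. The block gave 34 at 3 h and 5 at 12 h, and the other alternatives 0 to 11 at 12 h. Depth limits Nr0b2 (2 to 48 counts) and leaves the level of rarer genes such as Fgf15 (at most 1 count) undetermined.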
